A study of Mus musculus with 24 samples.

Results

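Lung CCR6+CD69+ memory B cells of wild-type mice were set against circulating memory B cells of the same genotype, with 4 bulk RNA libraries on each side. These 8 of the series' 24 libraries were chosen by their labels alone, and the labels call the cells csMBC, an abbreviation they do not spell out. The labels write the WT genotype as SCAP +/+ hCD20-TamCre, so the wild-type mice carry the transgene too: a tamoxifen-activated Cre recombinase driven by the human CD20 promoter, which is active in B cells. The mice were given house dust mite allergen intranasally and met it again 6 weeks later. The other 2 groups drawn on are the same sorts from SCAP cKO mice (SCAP fl/fl hCD20-TamCre), in which Scap was removed before the second allergen exposure, and WT lung CCR6-CD69- cells are given beside some genes, also with 4 libraries in each group. The labels read here give no age, sex or tamoxifen schedule, and they name lung as the tissue of every library, the circulating ones included. They do not say whether replicates are different mice, and p-values here speak of the scatter among these libraries alone, which may be technical.

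Memory B cells are left behind by an earlier encounter with antigen. Some circulate between blood and lymphoid organs, while others stay in tissues such as the lung, where CD69 blocks the exit receptor S1PR1 and the chemokine receptor CCR6 marks many of them. On meeting the allergen again, resident cells can respond on the spot, by presenting antigen on MHC class II, by dividing or by turning into antibody-secreting plasma cells.

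Total counts ran from 2765735 to 8566243 in the lung and from 356782 to 2466421 in the circulating libraries, and 3 counts in a library correspond to 0.341 to 0.966 and to 1.04 to 6.63 normalised CPM (counts scaled to a TMM-adjusted library size of 1000000). Such limits cover counting error only. Replicates of the lung group had a Pearson's r across genes, on log2 CPM, of 0.828 to 0.913 and those of the circulating group of 0.555 to 0.716 (genes are not independent replicates). Circulating replicate 2 was the smallest of the 8. Replicates 1 and 2 are batch 1 in the labels and replicates 3 and 4 batch 2. The share of ribosomal protein symbols (Rpl or Rps and a digit, pseudogenes included) was 9.24 to 13.8% of counts in the first and 2.84 to 3.59% in the second. Scap had 64.5, 77.2, 120.0 and 61.8 normalised CPM in the lung libraries and 116, 0, 109 and 171 in the circulating ones, given here and below for replicates 1 to 4 in that order. In the cKO libraries of the same sorts it had 41.0 to 173 and 113 to 374, counted over the whole gene, so these counts do not show the deletion. Its direction between the WT groups was -0.33 ± 0.93 (log2, SE; adjusted p 0.998) and turned without circulating replicate 4 (0.12). Cd69, one of the sorting markers, had 642, 993, 1031 and 1086 in lung and 1062, 30.9, 687 and 702 in circulating libraries, and the groups overlapped (log2 fold change 0.59 ± 0.56, SE; edgeR adjusted p 0.901). Ccr6, the other sorting marker, was not analysed here.

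The comparison asks how memory B cells held in the lung differ in their transcripts from those in circulation. Of 6779 genes tested with edgeR's quasi-likelihood test, 80 (1.18%) passed at an adjusted p under 0.05: 11 (0.162%) were higher and 69 (1.02%) lower in the lung. Before adjustment 788 genes (11.6%) had a p under 0.05, of which 477 were higher and 311 lower. A fitted log2 fold change above 0 was found in 3606 genes (53.2%), the share to set beside the list counts below. All 4 lung libraries lay above all 4 circulating libraries in 593 genes (8.75%) and below them in 237 (3.50%). The circulating libraries were all shallower, and 73 tested genes had 0 counts in that group, against 9 in the lung group. The part of depth in these counts was not tested. The split depended on the test: DESeq2 called 365 genes, 167 of them higher, limma voom called 285, 95 of them higher, and both sets held all 80. The remaining 198 and 190 were lower. Without a batch term 46 genes passed, in batch 1 alone 34 and in batch 2 alone 3. Leaving out lung replicate 1 gave 49 genes and lung replicate 4 gave 42, while leaving out circulating replicate 2, or both it and the other library under 500000 counts, gave 74 and 141. In bulk samples, fewer cells of a type and less RNA per cell cannot be told apart.

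Egr2 was the gene with the smallest p among the 11 that were higher in the lung. It encodes a zinc-finger transcription factor that B and T cells switch on within hours of antigen receptor signalling. It had 619.7, 790.1, 889 and 1049.6 normalised CPM in the lung libraries and 126, 30.9, 63.9 and 49.7 in the circulating ones. Every lung library lay above every circulating one, and the difference was 3.74 ± 0.65 on the log2 scale (SE; adjusted p 1.93e-04). It was 3.26 in batch 1 and 4.09 in batch 2, and Egr2 passed whichever of the 8 libraries was left out. The lung CCR6-CD69- libraries, at 288, 688, 407 and 299, lay between the other groups but for replicate 2.

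The promoter of Egr2 is shown with that of H2-Aa, a second gene higher in the lung, since their products stand for antigen receptor signalling and antigen presentation. Each line holds the 250 bases before the annotated start of transcription, from RefSeq's GRCm38.p6 promoter table (chr10:67535249-67535498, plus strand, the first of 5 starts listed, and chr17:34287824-34288073, minus strand), with the motifs found in capitals.
Egr2: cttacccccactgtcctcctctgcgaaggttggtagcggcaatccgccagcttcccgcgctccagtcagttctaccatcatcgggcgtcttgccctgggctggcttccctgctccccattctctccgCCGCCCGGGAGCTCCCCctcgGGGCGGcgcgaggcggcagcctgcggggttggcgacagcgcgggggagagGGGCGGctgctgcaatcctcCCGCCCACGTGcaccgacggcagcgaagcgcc
H2-Aa: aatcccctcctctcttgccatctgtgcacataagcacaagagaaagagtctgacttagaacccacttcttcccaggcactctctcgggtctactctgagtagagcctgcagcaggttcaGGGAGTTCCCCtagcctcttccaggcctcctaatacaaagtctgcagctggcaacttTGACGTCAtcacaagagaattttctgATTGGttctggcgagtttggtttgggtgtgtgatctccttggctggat
In Egr2 the capitals hold an NF-kB motif 117 bases before the start, 4 copies of the GC box GGGCGG on either strand (123, 102, 52 and 32 bases before) and an E box CACGTG 27 bases before, where the GC box at 32 overlaps the E box by 1 base. In H2-Aa they hold an NF-kB motif 131 bases before the start, the CRE TGACGTCA 74 bases before and a reversed CCAAT box (ATTGG) 48 bases before. Class II promoters are known for an X box with a CRE-like part and a Y box, which is a reversed CCAAT. Of 27025 promoter windows of this length, 7.01% held the NF-kB motif, 1.62% the CRE, 34.5% a CCAAT box, 32.9% a GC box and 6.05% the E box, both strands searched. The table held 10 of the 11 higher genes: 2 of them had the NF-kB motif (Egr2 and H2-Aa), 1 the CRE (H2-Aa) and 0 the EGR motif GCGGGGGCG, which 2.56% of all windows held. A match is a description of letters, not a bound site.

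Rasgrp3 encodes an exchange factor that activates Ras below the B cell receptor. It had 656, 594, 708 and 761 normalised CPM in the lung libraries and 133, 0, 142 and 62.1 in the circulating ones. The lung values lay close together and above all circulating values, of which replicate 2 was 0 (a count of 0 there allows up to 6.63). Rasgrp3 rose by 2.98 ± 0.72 (log2, SE; adjusted p 0.0181).

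Bcl2a1b, a gene of the BCL2 family that blocks cell death and responds to NF-kB, had 91.7, 259.7, 145 and 125 normalised CPM in the lung libraries. It had 14.4, 0, 0 and 6.58 in the circulating libraries, all below the lowest lung value, and rose by 5.02 ± 1.17 (log2, SE; adjusted p 0.00990). This gene is nearly a copy of Bcl2a1a and Bcl2a1d: 88.8% of its 31-base stretches in the GENCODE vM21 transcripts also occur in other genes, so reads may have been split between them and the gene named here is uncertain. Bcl2a1a itself was at 5.19 ± 2.10 without passing (adjusted p 0.275), with 468 counts in the lung group and 4 in the circulating group.

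H2-Aa encodes the alpha chain of the MHC class II molecule I-A. Its levels were 10555, 7846, 3436 and 3229 normalised CPM in the lung libraries and 5112, 2203, 1560.4 and 1058 in the circulating ones. Both lung libraries of batch 2 lay below circulating replicate 1, so the groups were not apart, but within each batch both lung libraries lay above both circulating ones (1.42 in batch 1 and 1.35 in batch 2). With batch in the model H2-Aa rose by 1.34 ± 0.31 (log2, SE; adjusted p 0.00999). It was the only one of the 11 higher genes whose groups overlapped.

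Nrp2 and Abca1 encode membrane proteins with well-known ligands or cargo. Nrp2, a co-receptor for semaphorins and VEGF, had 86.6, 50.0, 145 and 61.2 normalised CPM in lung and 12.0, 0, 1.39 and 0 in circulating libraries, a rise of 5.22 ± 1.35 (log2, SE; adjusted p 0.0263). Abca1, which exports cholesterol from cells and is switched on by LXR, had 426, 439, 853 and 896 in lung and 130.5, 124, 228 and 95.4 in circulating libraries (rise of 2.10 ± 0.57, adjusted p 0.0405). In both genes the lowest lung library lay above the highest circulating one, and in Nrp2 24 counts over the 4 circulating libraries stood against 1774 over the lung libraries.

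Tbc1d9, of a family that switches off Rab GTPases, had 101, 156, 205 and 173 normalised CPM in lung and 19.2, 2.21, 2.43 and 0.365 in circulating libraries (rise of 4.71 ± 1.08, log2, SE; adjusted p 0.00841). Trim5, related to the retroviral restriction factor of primates, had 122, 97.0, 74.3 and 50.2 in lung and 14.4, 0, 0.347 and 0 in circulating libraries (rise of 4.69 ± 1.17, adjusted p 0.0204). For both, circulating replicate 1 was the highest of its group and still below every lung library. Trim5 shares 53.3% of its 31-base stretches with other genes, mainly Trim12c and Trim12a, so its identity is uncertain.

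Scai, a repressor of SRF target genes, had 329, 287, 599 and 686 normalised CPM in lung and 86.0, 35.4, 112 and 76.4 in circulating libraries (rise of 2.60 ± 0.65, log2, SE; adjusted p 0.0203). Mycbp2, a very large ubiquitin ligase, had 2722, 1351, 4004 and 3119 in lung and 747, 303, 925 and 621 in circulating libraries (rise of 2.08 ± 0.53, adjusted p 0.0388). Herc1, another very large ubiquitin ligase, had 870.0, 666, 1296 and 1157 in lung and 193, 66.3, 432 and 506 in circulating libraries (rise of 1.89 ± 0.52, adjusted p 0.0455). In these 3 genes no lung library fell within the circulating range.

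**Figure D1:**
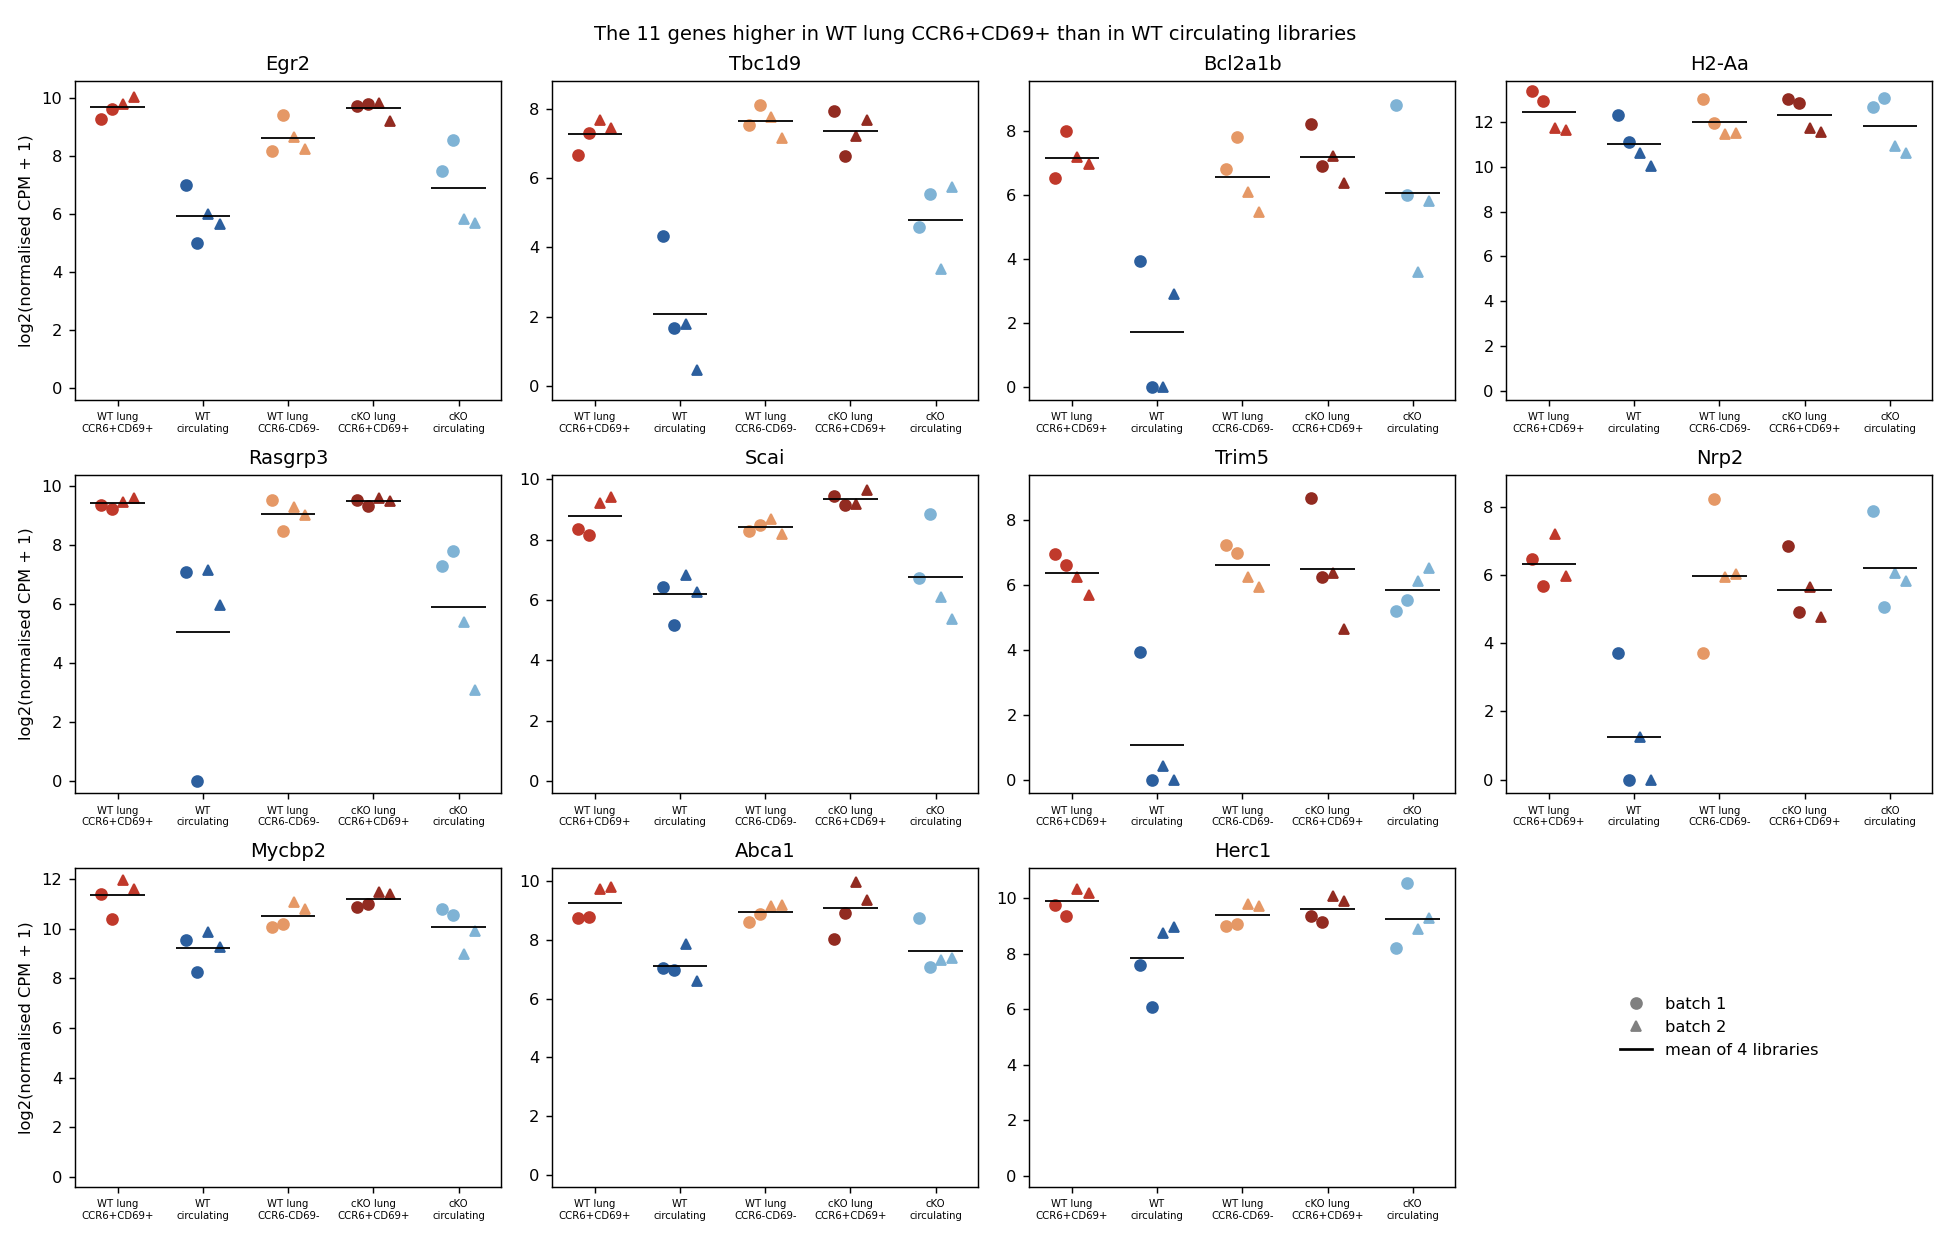
Levels of the 11 higher genes in 20 libraries. The y axis is log2 of normalised CPM plus 1, each point is 1 library (circles batch 1, triangles batch 2), bars are means of 4 libraries, and the x axis gives the 5 groups. The WT lung CCR6+CD69+ points lie above all WT circulating points in 10 of the 11 genes, H2-Aa being the exception.

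Most of these 11 calls depended on single libraries, while each kept its direction whichever library was left out. Apart from Egr2, the adjusted p exceeded 0.05 in the following cases. Tbc1d9 did not pass without circulating replicates 3 (0.0614) or 4 (0.0635), and Bcl2a1b not without circulating replicate 3 (0.0547). H2-Aa was lost without lung replicate 1 (0.0546) or circulating replicates 2 (0.0683) or 4 (0.0729), and Rasgrp3 without lung replicate 4 (0.0612) or circulating replicate 4 (0.0881). Scai was lost without lung replicates 3 (0.0904) or 4 (0.120) or circulating replicates 2 (0.0817) or 4 (0.0812), and Trim5 without lung replicate 1 (0.0603) or circulating replicates 2 (0.0695), 3 (0.112) or 4 (0.106). Nrp2 was lost without lung replicates 3 (0.133) or 4 (0.0592) or circulating replicates 2 (0.0776), 3 (0.111) or 4 (0.123). Mycbp2 passed without lung replicate 2 and without circulating replicate 1 alone, while Abca1 (0.0695 to 0.220) and Herc1 (0.0634 to 0.230) missed whichever library was left out. The number of higher genes was 20 without circulating replicate 1, but 4, 6 and 2 without circulating replicates 2, 3 and 4, and 7 and 5 without lung replicates 3 and 4.

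Falls in the lung included genes of homing. Selplg encodes PSGL-1, the ligand that lets leukocytes roll on selectins, and had 183, 297, 351 and 288 normalised CPM in lung and 3204, 1127, 2303 and 2191 in circulating libraries. The lowest circulating library lay far above the highest lung library, with a log2 fold change of lung over circulating of -2.97 ± 0.50 (SE; adjusted p 1.07e-04). Selplg passed whichever library was left out.

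Ccr2 and Ccr9 fell, while Ccr7 and Cxcr4 did not pass. Ccr2, which draws monocytes and some lymphocytes out of the marrow and into inflamed tissue, had 2.28, 14.1, 4.44 and 7.08 normalised CPM in lung and 645, 345, 353 and 683 in circulating libraries (-6.18 ± 1.12, log2, SE; adjusted p 3.23e-04). Ccr9, the receptor for the gut and thymus chemokine CCL25, had 5.80, 20.7, 0 and 0 in lung and 551, 177, 574 and 552 in circulating libraries (-6.77 ± 1.62, adjusted p 0.0477). The groups of both genes were apart. Ccr9 passed only without lung replicate 2 or circulating replicate 2, and was otherwise lost on leaving out a library (0.0689 to 0.179). Ccr7, which guides cells into lymph nodes, overlapped between the groups and did not pass (-0.09 ± 0.53, adjusted p 0.998), and its direction turned in batch 2 alone (0.68), in limma voom (0.03), without lung replicate 1 (0.20) and without circulating replicate 1 (0.34). Cxcr4, the receptor that holds B cells in the bone marrow and in the dark zone of follicles, was at -0.46 ± 0.52 (adjusted p 0.956).

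The largest block of falls, 19 of the 69, lay on the lists of natural killer (NK) cell effector genes and killer cell lectin-like receptors, written with earlier results of these data known. Ccl4, a chemokine of activated lymphocytes, had 12.6, 23.7, 4.97 and 11.6 normalised CPM in lung and 1942, 738, 245 and 223 in circulating libraries (-5.44 ± 0.73, log2, SE; adjusted p 1.51e-06). Nkg7, a protein of cytotoxic granules, had 4.44, 6.11, 4.18 and 3.86 in lung and 584, 667, 241 and 669 in circulating libraries (-6.91 ± 1.03, adjusted p 2.42e-05). Eomes, the T-box factor of NK and memory CD8 T cells, had 1.37, 2.22, 0 and 0 in lung and 319, 506, 308 and 714 in circulating libraries (-9.15 ± 1.39, adjusted p 2.42e-05). In these 3 genes every circulating library stood above 200 and every lung library under 25.

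Tyrobp and Fcer1g encode the signalling adaptors of many NK and myeloid receptors. Tyrobp had 20.4, 39.4, 22.7 and 6.76 normalised CPM in lung and 1938, 495, 187 and 192 in circulating libraries (-4.44 ± 0.72, log2, SE; adjusted p 6.35e-05). Fcer1g had 14.6, 21.3, 5.49 and 18.4 in lung and 729, 439.8, 184 and 79.7 in circulating libraries (-4.02 ± 0.84, adjusted p 0.00210). Their circulating values differed more among libraries than those of Nkg7 or Eomes did, with replicate 1 highest, and stayed above every lung value. Of the NK list, 20 of 30 genes had a row and were tested: 19 were lower and 14 passed as lower, with a median log2 fold change of -6.19 against 0.09 over all genes. The filter on counts kept Eomes and Samd3, for example, through circulating libraries, which partly fixed their direction. Besides those named, Ncr1, Klrb1c, Xcl1, Il18rap, Samd3, Txk, Serpinb9b, Serpinb6b and Sytl2 fell, with log2 fold changes between -4.15 for Serpinb6b and -8.74 for Serpinb9b apart from Sytl2. Sytl2 had 2 counts over the 4 lung libraries and 425 over the circulating ones, a ratio of 580.5 (95% exact interval 159.7 to 4809, counting error only). Calls lost on leaving out 1 library were Txk without lung replicates 1 (0.0758), 3 (0.0979) or 4 (0.116) or circulating replicate 4 (0.0655), Serpinb9b without lung replicates 1 (0.108), 2 (0.107), 3 (0.117) or 4 (0.120) and Serpinb6b without lung replicates 1 (0.0657), 3 (0.110) or 4 (0.0851) or circulating replicate 4 (0.0812). Il18rap was lost without lung replicates 1 (0.138), 2 (0.0872) or 4 (0.104) or circulating replicates 2 (0.0651) or 4 (0.0881), and Sytl2 without lung replicates 1 (0.106), 2 (0.0885), 3 (0.0779) or 4 (0.124) or circulating replicate 2 (0.382).

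The killer cell lectin-like receptor genes are a family of NK receptors in 1 gene complex. All 11 tested members were lower, 6 passed (Klra1, Klra4, Klra7, Klra8, Klrb1c and Klre1) and the median log2 fold change was -8.04, also with Klra9, at 0 counts in the lung, set to its bound. Klra1 had 4 counts in the lung group against 711 in the circulating group, so the filter on counts kept it through circulating libraries. Members low in every group were not tested, so the filter partly fixed this common direction. Klra4 had 0.683, 1.67, 0 and 0 normalised CPM in lung and 257, 39.8, 68.7 and 83.7 in circulating libraries (-8.76 ± 1.62, log2, SE; adjusted p 4.12e-04). Klra7 had 3 counts in the lung group and 756 in the circulating group, a ratio of 688.4 (95% exact interval 234.7 to 3346). The lung libraries of batch 2 held 0 counts of Klra4 and of Klra7. The genes resemble each other, and 17.5% of the 31-base stretches of Klra4, 24.7% of those of Klra7 and 55.0% of those of Klra8 also occur elsewhere, so single members are uncertain. Klra8 did not pass without lung replicates 1 (0.0649), 3 (0.0721) or 4 (0.0793), nor Klrb1c without lung replicate 4 (0.0508).

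The promoter of Nkg7 is shown for a T-box motif next to its start, and was picked with that motif known. The window of Jchain, another lower gene, held none of the motifs searched. Whether Eomes or any other factor acts on Nkg7 in these cells was not tested. It is from RefSeq's GRCm38.p6 table (chr7:43436888-43437137, plus strand), with the motifs in capitals.
Nkg7: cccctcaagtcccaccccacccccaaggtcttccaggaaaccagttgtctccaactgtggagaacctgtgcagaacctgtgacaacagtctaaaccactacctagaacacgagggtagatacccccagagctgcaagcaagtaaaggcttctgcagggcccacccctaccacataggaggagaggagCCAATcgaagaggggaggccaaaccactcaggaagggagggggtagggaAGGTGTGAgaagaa
The capitals mark a CCAAT box 63 bases before the start and the T-box motif AGGTGTGA 14 bases before. Of the 53 lower genes that the table held, 2 had this T-box motif (Nkg7 and Samd3, 3.77%), against 1.14% of all windows. Windows without a match say nothing of the factor.

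Shares of counts per library show how far other cell types' genes moved with these results. NK list genes took 0.0188 to 0.0274% of counts in the lung and 0.308 to 0.618% in the circulating libraries, and 0 of the 20 with a row were at 0 in either group. Killer cell lectin-like receptor genes took at most 0.00143% in lung libraries, where Klra9, Klrc3 and Klri1 were at 0, and 0.0682 to 0.170% in circulating ones. T cell genes took 0.0366 to 0.0515% and 0.129 to 0.167%. All 12 tested T cell genes were lower and 1 passed, Cd4 (2.62, 7.96, 24.6 and 7.41 normalised CPM in lung and 530.2, 33.1, 248 and 225 in circulating libraries; -4.71 ± 1.07, adjusted p 0.00908). Cd4 was lost without lung replicates 1 (0.0673), 2 (0.0573) or 4 (0.0631) or circulating replicate 1 (0.0509). B cell identity genes, among them Ms4a1, took 0.661 to 0.787% in lung and 0.434 to 0.811% in circulating libraries, ranges that overlap. The part of RNA from other cells in the falls, and in the rises, was not tested.

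**Figure D2:**
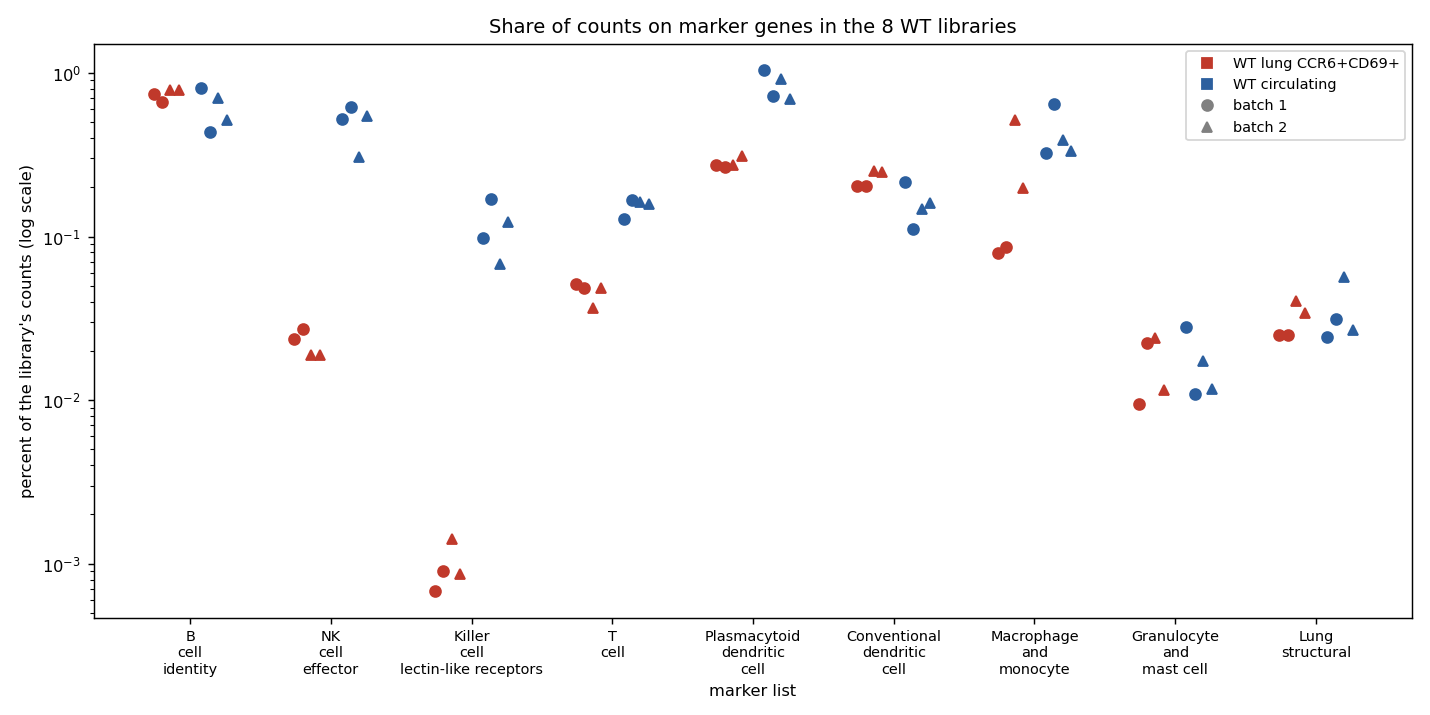
Share of each library's counts on 9 marker lists, as percent on a log axis. Red points are WT lung CCR6+CD69+ and blue points WT circulating libraries, circles batch 1 and triangles batch 2. The NK, killer cell lectin-like receptor, T cell and plasmacytoid dendritic cell shares of the groups do not overlap, and the B cell identity shares do.

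A further 10 lower genes lay on the plasmacytoid dendritic cell list. Plasmacytoid dendritic cells are the main producers of type I interferon and share several factors with B cells. Irf8, a transcription factor of both lineages, had 587, 893, 520.3 and 827 normalised CPM in lung and 4251, 2323, 2728 and 2354 in circulating libraries (-2.03 ± 0.37, log2, SE; adjusted p 3.96e-04). Spib, an Ets factor of both lineages that is also on the B cell identity list, had 409.8, 529.7, 236 and 263 in lung and 2721, 705, 839.9 and 728 in circulating libraries (-1.76 ± 0.48, adjusted p 0.0451). The groups of both genes were apart, and both stayed well above 0 in every lung library. Spib passed only when circulating replicate 2 was left out, of the 8 libraries, and was lost otherwise (0.0864 to 0.215).

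Other genes of that list were near 0 in the lung. Lifr, a receptor of the interleukin-6 family, had 3.19, 10.7, 5.23 and 0 normalised CPM in lung and 1077, 108, 218 and 222 in circulating libraries (-6.38 ± 1.14, log2, SE; adjusted p 2.54e-04). Ptprf, a receptor tyrosine phosphatase, had 1.37, 2.22, 0 and 0 in lung and 173, 4.42, 186 and 111 in circulating libraries (-7.34 ± 1.40, adjusted p 7.93e-04). Pltp, a phospholipid transfer protein and LXR target, had 7.74, 12.8, 10.7 and 8.69 in lung and 454, 327, 282 and 115 in circulating libraries (-4.65 ± 0.94, adjusted p 0.00155). The groups of each of these 3 genes were apart, in Ptprf only narrowly through circulating replicate 2. Clec10a, Sla2, Cox6a2, Dntt and Ccr9 made up the rest, with log2 fold changes from -4.86 for Sla2 to -7.44 for Dntt. Clec10a was lost without lung replicate 4 (0.0508), and Sla2 without lung replicates 1 (0.0743), 2 (0.0573) or 4 (0.0815). Cox6a2 was lost without lung replicates 1 (0.0514) or 4 (0.0592) or circulating replicate 3 (0.0614), and Dntt without lung replicates 1 (0.0660), 3 (0.0796) or 4 (0.0851) or circulating replicate 3 (0.112). All 13 tested genes of the list were lower, 10 passed, and the median was -4.86. Ptprf, Dntt, Cox6a2 and Clec10a averaged 0.896, 1.17, 0.840 and 1.14 normalised CPM in the lung group. The filter on counts therefore kept these through libraries of other groups, which partly fixed their direction. The list took 0.266 to 0.311% of counts in the lung and 0.688 to 1.04% in the circulating libraries, and 0 of its 14 genes with a row were at 0 in either group.

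Macrophage and monocyte genes did not move in 1 direction. Of 21 tested, 15 were lower and 6 higher, 1 passed (Ccr2), and the median over those tested within a batch was -2.45 in batch 1 and 0.63 in batch 2. Their share was 0.0797 and 0.0865% of counts in the batch 1 lung libraries, 0.513 and 0.199% in those of batch 2, and 0.326 to 0.641% in circulating libraries. Marco, a scavenger receptor of alveolar macrophages, was at 0 in all 8 libraries.

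**Figure D3:**
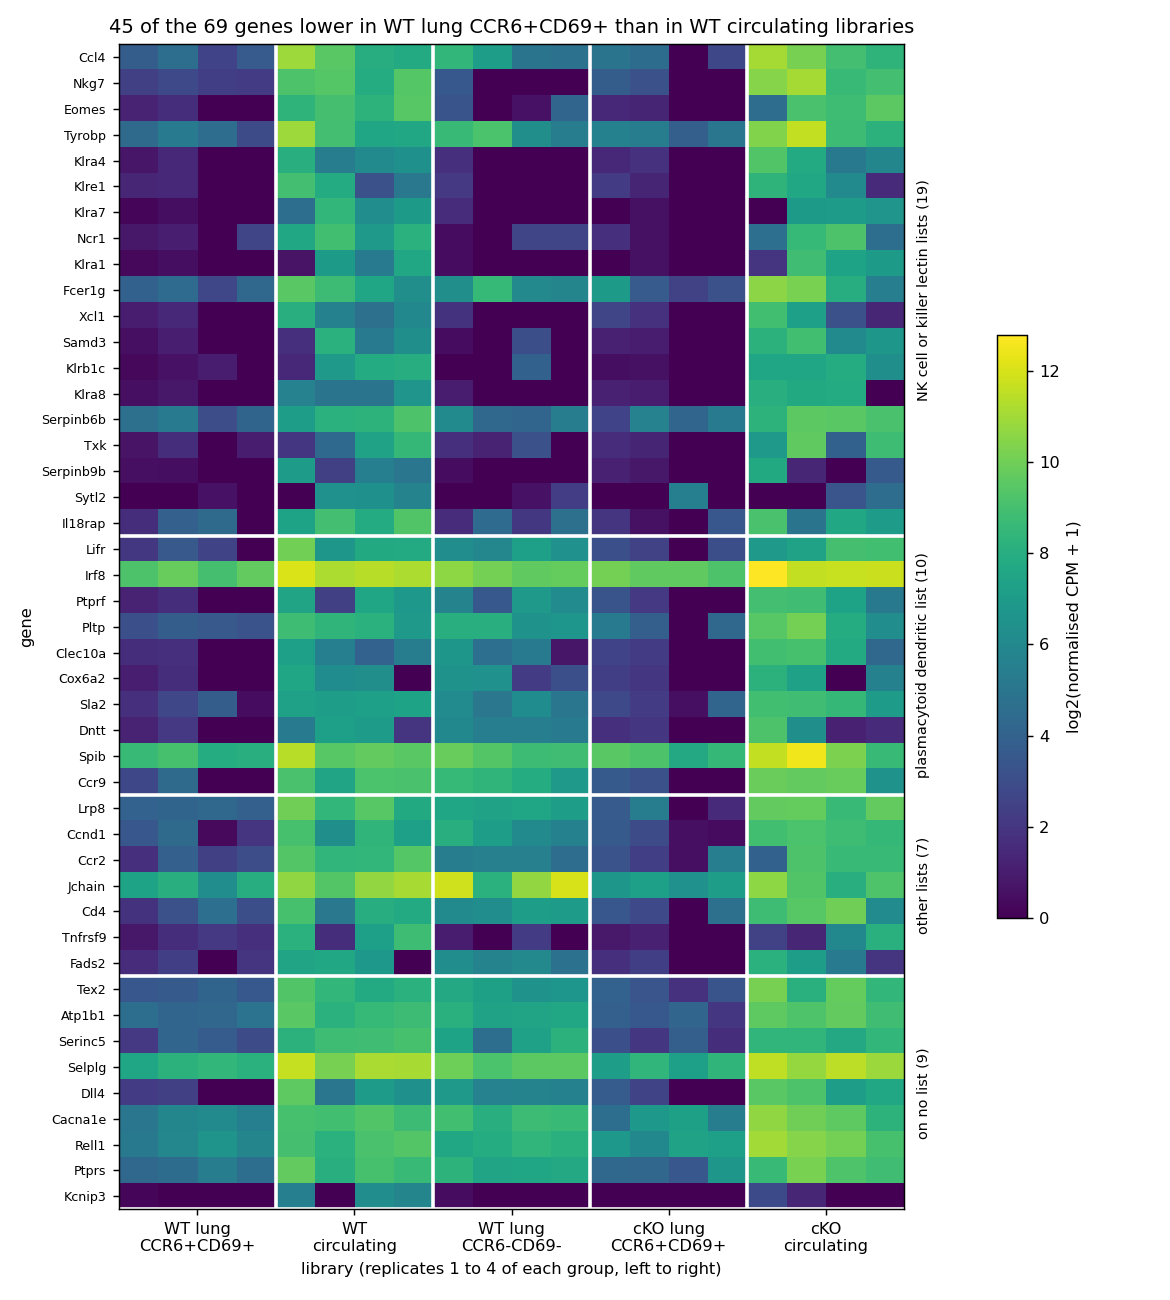
Heat map of 45 of the 69 lower genes, those named in the text (y axis), in 20 libraries (x axis, replicates 1 to 4 of each of 5 groups), coloured by log2 of normalised CPM plus 1. The 4 blocks show 19 NK or killer lectin genes, 10 plasmacytoid dendritic cell genes, 7 of 9 genes of other lists and 9 of 31 genes on no list. The WT lung CCR6+CD69+ columns are darker than the circulating columns of both genotypes in most of these genes.

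Of the 69 lower genes, 31 were on no list. Tex2, a lipid transfer protein of the endoplasmic reticulum, had 10.0, 11.5, 16.5 and 10.6 normalised CPM in lung and 634, 347, 227 and 289 in circulating libraries (-4.86 ± 0.75, log2, SE; adjusted p 2.42e-05). Atp1b1, a subunit of the sodium pump, had 23.9, 17.2, 17.5 and 28.7 in lung and 721, 285, 371 and 439.6 in circulating libraries (-4.37 ± 0.70, adjusted p 4.15e-05). Serinc5, a membrane protein that lowers the infectivity of retroviruses, had 3.41, 16.8, 12.3 and 6.76 in lung and 295, 453, 463 and 534 in circulating libraries (-5.42 ± 0.91, adjusted p 1.06e-04). In each, the lowest circulating library stood far above the highest lung library.

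Dll4, a Notch ligand, had 3.87, 4.44, 0 and 0 normalised CPM in lung and 767, 30.9, 131 and 84.8 in circulating libraries (-7.37 ± 1.27, log2, SE; adjusted p 1.71e-04). Cacna1e, a calcium channel subunit, had 30.9, 57.7, 65.9 and 44.8 in lung and 538, 482, 635 and 432 in circulating libraries (-3.39 ± 0.61, adjusted p 2.54e-04). Ptprs, a receptor tyrosine phosphatase, had 18.2, 22.0, 41.6 and 23.2 in lung and 848, 256, 533 and 385 in circulating libraries (-4.31 ± 0.82, adjusted p 6.49e-04). Rell1, a relative of the TNF receptor RELT, was lower too (-3.04 ± 0.57, adjusted p 4.71e-04), and the groups of these 4 genes were apart. Across the 69 lower genes 59 had groups apart, 46 averaged under 10 normalised CPM in the lung, and 3 had 3 or fewer counts there (Klra7, Sytl2 and Kcnip3). Kcnip3, singled out after its values were seen, had 1 count in the lung group and 450 in the circulating group, a ratio of 1229 (95% exact interval 219.5 to 48660, counting error only). Its groups overlapped, with circulating replicate 2 at 0 and lung replicate 1 at 0.114 normalised CPM. In the SCAP cKO circulating libraries Kcnip3 had 6.44, 1.61, 0 and 0. It did not pass in SCAP cKO (-4.72 ± 2.24, log2, SE; edgeR adjusted p 0.372).

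Jchain, which joins the units of secreted IgM and IgA, had 169, 269, 75.8 and 245 normalised CPM in lung and 1614, 649.7, 1699 and 2192 in circulating libraries. The lowest circulating library lay above the highest lung library, and Jchain fell (-3.02 ± 0.60, log2, SE; adjusted p 0.00201). Of 8 tested plasma cell genes 6 were lower and 1 passed, with a median of -0.48. Sdc1, the plasma cell surface proteoglycan, was at -3.56 ± 1.67 without passing (adjusted p 0.372), and Edem1, which sorts misfolded proteins for breakdown, at 0.03, and below 0 in 6 alternative settings, among them without lung replicate 2 (-0.02) or circulating replicate 1 (-0.05). The unfolded protein response genes tested, among them the stress sensors Atf6 and Ern1, the degradation adaptor Sel1l and several chaperones and folding enzymes, were lower in 9 of 9 (median -1.05), of which 0 passed and 3 had an unadjusted p under 0.05. These 3 were Hsp90b1, Pdia6 (-1.10 ± 0.51, adjusted p 0.367) and Ern1 (-3.24 ± 1.25, adjusted p 0.250). Hsp90b1, the chaperone also called GRP94, had 1165, 825, 1430.2 and 1246 in lung and 1873, 2672, 2817 and 3065 in circulating libraries, groups that were apart, and was at -1.17 ± 0.36 (adjusted p 0.113).

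B cell identity genes had no common direction: of 14 tested, 8 were higher and 6 lower, with a median of 0.19 against 0.09 over all genes, which was below 0 without libraries under 500000 counts (-0.24), without circulating replicate 2 (-0.11) and without circulating replicate 4 (-0.08). Spib fell, and 0 members passed as higher. Ms4a1, which encodes CD20, had 1370.1, 1285, 1170.1 and 1380.3 normalised CPM in lung and 650.5, 305, 769.8 and 391 in circulating libraries. These groups were apart, at 1.29 ± 0.42 (log2, SE), while the adjusted p was 0.157. Pax5, the factor that holds cells in the B lineage, overlapped (-0.11 ± 0.44, adjusted p 0.998; 0.53 without circulating replicate 1). Bank1, an adaptor (1.64 ± 0.63), and Tnfrsf13c, the receptor for the survival factor BAFF (1.59 ± 0.67), had unadjusted p of 0.0121 and 0.0211 and did not pass.

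MHC class II presentation genes were higher in 9 of 10 by the fitted values, with a median of 0.89, and H2-Aa passed. Ctss, a protease that cuts the invariant chain, was among the 9 at 0.07 ± 0.42, with means of 1217 ± 281 normalised CPM in lung and 1347 ± 818 in circulating libraries (SD, n = 4). Cd74, the invariant chain that guides class II molecules, had 16116, 26999.9, 14440.4 and 17758 normalised CPM in lung and 17950.0, 7690.3, 8492 and 6455 in circulating libraries (0.94 ± 0.27, log2, SE; adjusted p 0.0700). H2-Eb1, the beta chain of I-E, had 6119, 11374, 4891 and 5459 in lung and 7389, 1923, 2440.2 and 1649 in circulating libraries (1.14 ± 0.32, adjusted p 0.0621). Both overlapped through circulating replicate 1, which was the highest of its group, and without it both passed (adjusted p 0.0220 and 0.0127), as they did without lung replicate 1 (0.0299 and 0.0298). H2-DMb2, part of the editor that loads peptides, was at 1.10 ± 0.45 (adjusted p 0.282) and shares 36.6% of its 31-base stretches with other genes, mainly H2-DMb1. The list took 2.94 to 5.10% of counts in lung and 1.32 to 2.64% in circulating libraries.

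Germinal centre genes had a fitted log2 fold change above 0 in 7 of 7 tested, with a median of 2.02, and 0 passed. For S1pr2, a receptor that keeps germinal centre B cells in the follicle, the group means went the other way, at 5.83 ± 6.10 normalised CPM in lung and 13.5 ± 23.1 in circulating libraries (SD, n = 4), and the fitted value was 0.36 ± 1.41 (adjusted p 0.998). Mef2c, a factor of B cell activation, had 1102, 949, 1557 and 1274 normalised CPM in lung and 669, 170.2, 851 and 702 in circulating libraries, groups that were apart (1.06 ± 0.49, log2, SE; adjusted p 0.366). Of 14 genes used to tell memory B cells, 9 were higher (median 0.88) and 0 passed: Pdcd1lg2, which encodes the memory marker PD-L2, was at 3.27 ± 1.14 with groups apart, Zeb2 at -1.71 ± 0.66 and Cd27 at -5.14 ± 1.95 (adjusted p 0.204, 0.250 and 0.246).

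NF-kB and CD40 survival genes were higher in 17 of 22 (median 0.80), with Bcl2a1b past the threshold and 6 higher against 0 lower members at an unadjusted p under 0.05. Over all genes that p was reached by 477 higher and 311 lower genes. Traf1, an adaptor of TNF receptors that NF-kB induces, had 364, 486, 304 and 259 normalised CPM in lung and 95.6, 64.1, 47.2 and 38.4 in circulating libraries, apart without overlap, and just missed (2.58 ± 0.72, log2, SE; adjusted p 0.0536). Rel, the NF-kB subunit c-Rel, had 1091, 1421, 2197 and 1975 in lung and 676, 552, 1148 and 854 in circulating libraries (1.04 ± 0.42, adjusted p 0.277), and its groups overlapped. Tnfaip3, which encodes the NF-kB brake A20, was at -0.65 ± 0.40 without passing (adjusted p 0.637).

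Egr2 and Rasgrp3 were the only members of their lists that passed. Of 18 immediate early genes 8 were higher and 10 lower, with a median of -0.13 that turned to 0.02 in limma voom and 0.10 without lung replicate 1, and to 0.01 without circulating replicate 1 or 2, and Egr2 was the only one that passed. Zfp36, which destabilises cytokine transcripts, was at -0.97 ± 0.50 (adjusted p 0.453) and Btg2, a gene against division, at 0.11 ± 0.35 (adjusted p 0.998), and below 0 without lung replicate 4 (-0.01), without circulating replicate 2 and without libraries under 500000 counts (-0.20). Of 25 genes of B cell receptor signalling 10 were higher and 15 lower (median -0.21, but 0.13 in batch 1 alone and 0.10 without circulating replicate 4), and Rasgrp3 alone passed. Inpp5d, the inhibitory lipid phosphatase SHIP1, had groups that were apart and did not pass (1.16 ± 0.49, adjusted p 0.301).

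Tissue retention genes were higher in 5 and lower in 8 of 13, and 0 passed. Their median of -0.58, the same with Cd101 and Crtam at their bounds, turned to 0.35 in batch 1 alone and to 0.26 without circulating replicate 3. Rgs1, a brake on chemokine receptors and a common gene of resident lymphocytes, had 921, 906, 904 and 1050.0 normalised CPM in lung and 515, 263, 253 and 519 in circulating libraries. Every lung library lay above every circulating one (1.28 ± 0.48, log2, SE; adjusted p 0.239). Itga4, the integrin alpha 4 chain (0.64 ± 0.37, adjusted p 0.578), and Itgal, that of LFA-1 (-0.72 ± 0.43, adjusted p 0.616), differed in sign and did not pass. On the recirculation and egress list 9 of 13 were lower (median -0.46) and 1 passed. Klf3 (-2.29 ± 1.05) and Foxp1 (-1.40 ± 0.61), both transcription factors, had groups that were apart and adjusted p of 0.352 and 0.324. Gpr183, the oxysterol receptor EBI2 that positions B cells, was at 2.03 ± 0.99 in the other direction (adjusted p 0.422).

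Cell cycle and replication genes were lower in 16 of 19 (median -1.18), and Ccnd1 passed. Ccnd1, the cyclin D1 of entry into the cycle, had 9.90, 20.2, 0.261 and 2.90 normalised CPM in lung and 539.9, 81.8, 327 and 147 in circulating libraries, with groups apart (-5.79 ± 1.04, log2, SE; adjusted p 2.54e-04), and shares 22.3% of its 31-base stretches with other genes. Mature B cells are known to rely on cyclins D2 and D3 rather than D1. Mki67, the proliferation marker, had 152, 44.0, 184 and 147 in lung and 262, 0, 325 and 764 in circulating libraries, which overlapped (-1.17 ± 1.19, adjusted p 0.934). The list took 0.0661 to 0.114% of counts in lung and 0.173 to 0.348% in circulating libraries.

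Lipid genes, the pathway that SCAP controls, leaned lower with few calls. Cholesterol synthesis genes took 0.0975 to 0.111% of counts in lung and 0.0959 to 0.136% in circulating libraries, ranges that overlap. Of the 12 tested 9 were lower (median -0.43) and 0 passed. Cyp51, a demethylase of the pathway, went the other way with groups apart (435, 473, 544 and 423 normalised CPM in lung and 225, 66.3, 396 and 309 in circulating libraries; 0.92 ± 0.63, adjusted p 0.730). Fatty acid genes took 0.108 to 0.153% of counts in lung and 0.166 to 0.258% in circulating libraries. Of 15 tested 13 were lower (median -0.48), and Fads2, the delta-6 desaturase, passed at -5.57 ± 1.51 (adjusted p 0.0419). Fads2 had 2.05, 4.26, 0 and 2.90 in lung and 173, 203, 111 and 0 in circulating libraries, where replicate 4 was 0 and overlapped. It passed only without circulating replicate 4, and was lost otherwise on leaving out a library (0.0569 to 0.203).

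Of 11 genes of sterol uptake and SREBP control 8 were lower, with a median of -0.59, and Lrp8 passed. The median turned to 0.28 in limma voom and to 0.51 with the replicate block in the 8 libraries alone. Lrp8, a receptor that binds reelin and apolipoprotein E, had 15.5, 16.3, 18.0 and 14.2 normalised CPM in lung and 1029.8, 354, 701 and 218 in circulating libraries (-5.09 ± 0.88, log2, SE; adjusted p 2.28e-04). The lung values lay within a narrow range and far below the circulating ones. On the short efflux list Abca1 rose and Pltp fell, though both are LXR targets, and the third tested gene, Abca7, was at -0.06.

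**Figure D4:**
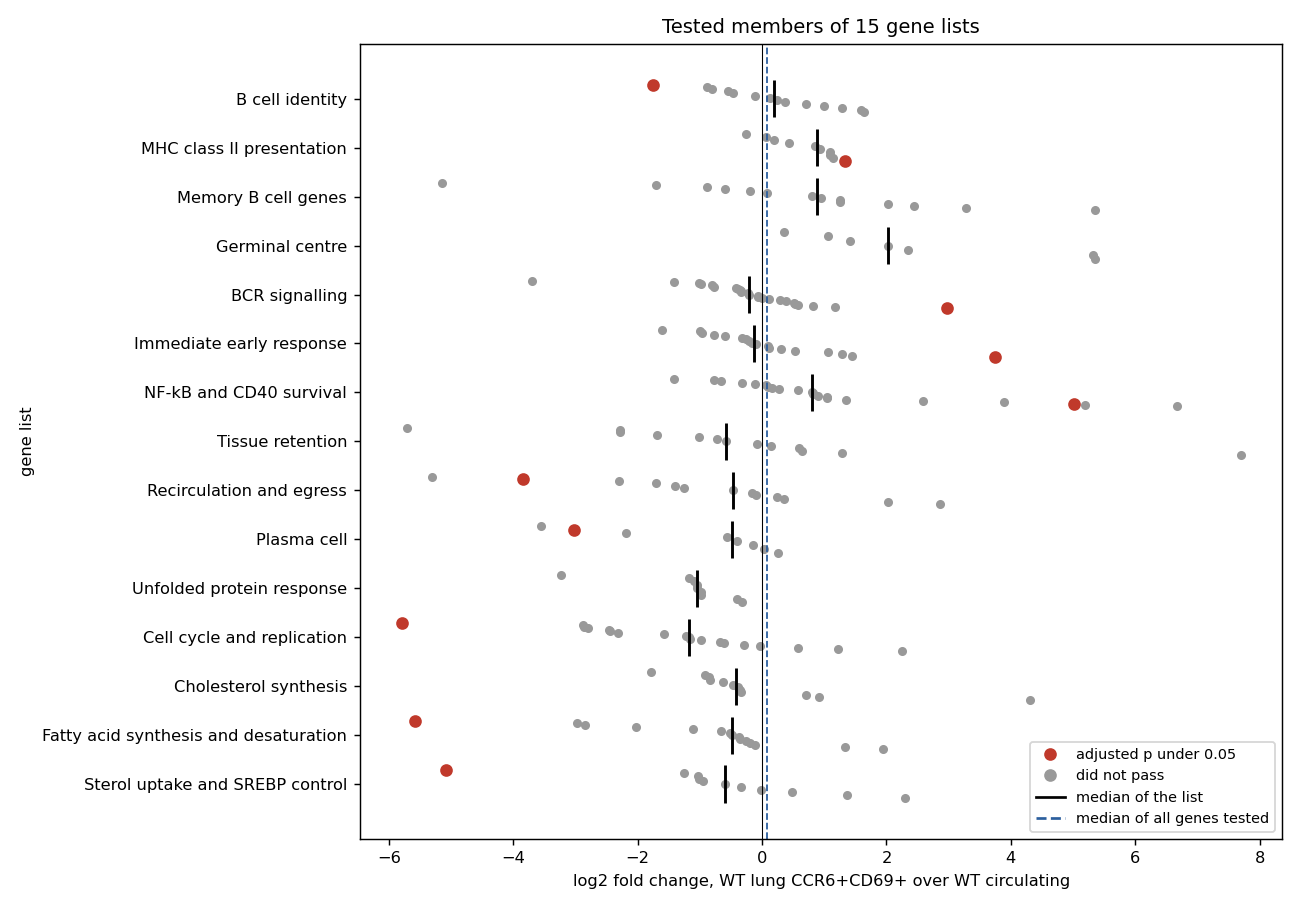
Log2 fold changes (x axis, WT lung CCR6+CD69+ over WT circulating) of the tested members of 15 gene lists (y axis). Each point is 1 gene, red where the adjusted p is under 0.05, black bars are list medians and the dashed line is the median of all genes tested. The germinal centre median (2.02) lies farthest to the right and the cell cycle median (-1.18) farthest to the left.

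Lung CCR6-CD69- libraries place some of these genes within the lung. The comparison with them shares the lung CCR6+CD69+ libraries with the one above, so the values are only set side by side. In it 20 of 6779 genes (0.295%) passed, and 3.33% had an unadjusted p under 0.05. For Lrp8 the means were 16.0 ± 1.62 normalised CPM in lung CCR6+CD69+, 168 ± 20.8 in lung CCR6-CD69- and 576 ± 365 in circulating libraries (SD, n = 4), and CCR6+CD69+ fell also against CCR6-CD69- (-3.38 ± 0.81, adjusted p 0.0407). Lrp8 thus lay lowest in CCR6+CD69+ cells, between in the other lung cells and highest in circulation.

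Other genes had another order. Nkg7 averaged 4.65 ± 1.00 normalised CPM in CCR6+CD69+, 2.62 ± 5.24 in CCR6-CD69- and 540.3 ± 204 in circulating libraries (SD, n = 4), and did not pass between the lung groups (adjusted p 1.00). Jchain averaged 189.7 ± 87.0, 2427 ± 1771 and 1539 ± 645, and fell in CCR6+CD69+ against CCR6-CD69- (-3.67 ± 0.62, adjusted p 0.00275). Egr2 was at 1.12 ± 0.59 between the lung groups and Rasgrp3 at 0.30 ± 0.67, with adjusted p of 1.00 for both, so neither passed.

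The same sorts from SCAP cKO mice give independent libraries, fitted in the same model. There 104 of 6779 genes (1.53%) passed, 5 (0.0738%) higher and 99 (1.46%) lower in lung CCR6+CD69+. Of all genes, 49.8% had a log2 fold change above 0, against 53.2% in WT. How many of all genes had groups apart in SCAP cKO was not counted, so such counts stand here and below without a background. Of the 69 genes lower in WT, 68 were lower in SCAP cKO, 61 passed and 51 had groups apart, with a median of -6.09 against -6.18 in WT. Selplg, for example, had 137, 343, 147 and 325 normalised CPM in cKO lung and 2984, 1707, 2939 and 1835 in cKO circulating libraries (-3.32 ± 0.51, log2, SE; adjusted p 1.36e-05). Nkg7 had 12.7, 7.94, 0 and 0 and 1426, 2093, 389 and 500.0 (-8.34 ± 1.10, adjusted p 1.09e-06), and Lrp8 was at -6.09 ± 0.93 (adjusted p 1.79e-05). Sytl2 was the 1 gene not lower, at 0.20 ± 3.18 (adjusted p 0.988).

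Of the 11 genes higher in WT, 9 were higher in SCAP cKO, 2 passed (Egr2 and Rasgrp3) and 5 had groups apart, with a median of 0.91 against 2.98. Egr2 had 847, 886, 919 and 591 normalised CPM in cKO lung and 177, 371, 55.6 and 51.3 in cKO circulating libraries (2.58 ± 0.63, log2, SE; adjusted p 0.0115). Rasgrp3 had 733, 643, 778 and 725 and 156, 221, 40.8 and 7.55 (2.85 ± 0.73, adjusted p 0.0241). In both genes all cKO lung libraries lay above all cKO circulating ones. Bcl2a1b had 298, 121, 148 and 81.9 in cKO lung and 456, 62.9, 11.1 and 55.6 in cKO circulating libraries, which overlapped (0.64 ± 1.00, adjusted p 0.823). Nrp2 had 114, 29.2, 49.1 and 26.3 and 234, 32.3, 65.5 and 55.6, again overlapping (-0.79 ± 1.10, adjusted p 0.797). For Nrp2 all 4 cKO circulating libraries lay above all 4 WT circulating ones. The other 3 of the 5 genes that passed higher in cKO were H2-DMb2 (2.48 ± 0.47, adjusted p 5.60e-04), H2-Eb1 (1.49 ± 0.33, adjusted p 0.00397) and Cd74 (1.06 ± 0.27, adjusted p 0.0195), MHC class II presentation genes that were above 0 without passing in WT.

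The difference between the genotypes was tested itself. In edgeR 0 of 6779 genes passed, 367 (5.41%) had an unadjusted p under 0.05, limma voom called 0 and DESeq2 67. Of the 11 rises 5 had such a p: Nrp2 (6.00 ± 1.70, log2, SE, WT minus cKO; p 8.10e-04), Bcl2a1b (0.00390), Herc1 (0.00938), Trim5 (0.0171) and H2-Aa (0.0398), with adjusted p of at least 0.540. Of the 69 falls 1 did, Sytl2 (7.32e-04). The genes were chosen on the WT side of this difference, so the comparison is not independent of that choice.

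**Figure D5:**
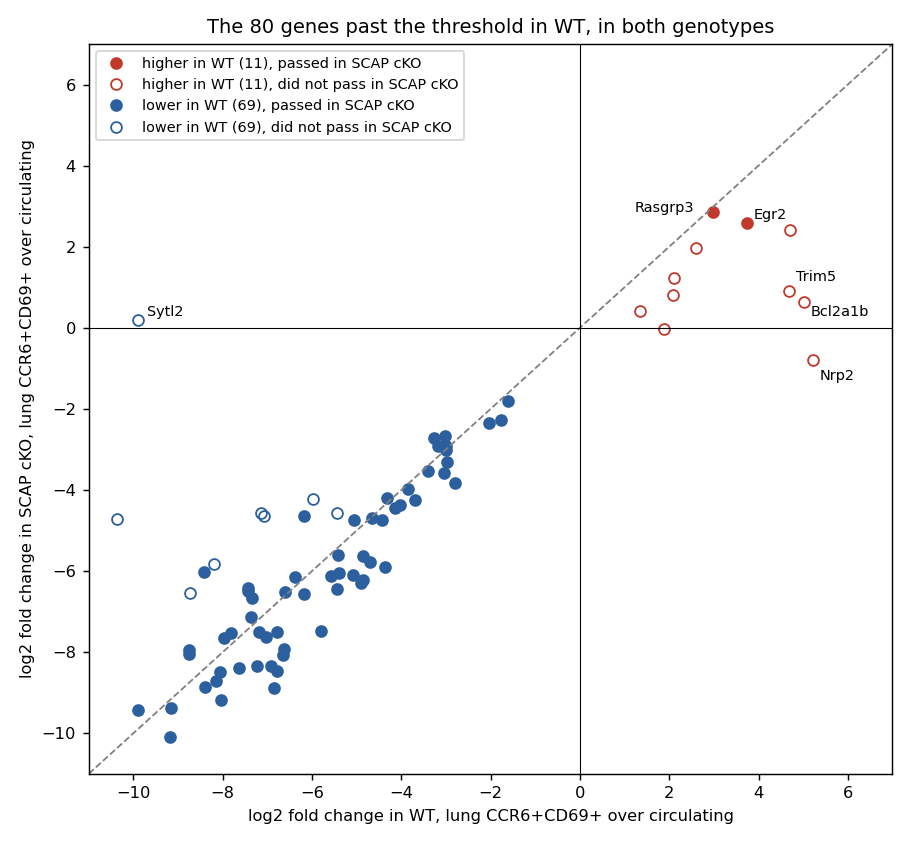
The 80 genes that passed in WT, with the log2 fold change of lung CCR6+CD69+ over circulating in WT (x axis) and in SCAP cKO (y axis). Filled points passed in SCAP cKO too and the dashed line marks equal values. The 69 lower genes (blue) lie on either side of the line, with Sytl2 far above it, and all 11 higher genes (red) lie below it, Rasgrp3 the nearest and Nrp2 the farthest.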

How the data were processed

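RNA counts of the 24 libraries, in 6 groups of 4, were read as deposited. Per the labels' protocols, polyA RNA of sorted cells was made into libraries with a low-input xGen Broad-range kit. FastQC, STAR, Salmon and the mm39 build are named, per the submitters' processing notes. Which tool made the counts, and their versions, are not given in the sources used here. The deposited counts are whole numbers for 18470 gene symbols.

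Genes were filtered with filterByExpr by group (6779 kept), scaled by TMM, and tested with edgeR 4.0.16 (robust quasi-likelihood) in all 24 libraries with group and batch as terms, with Benjamini-Hochberg adjustment over all genes and a threshold of 0.05. The script was tested on simulated data. SDs and ranges are of normalised CPM. In counts over lists, higher and lower give the sign of the fitted log2 fold change, which for some members is not that of the difference between group means. The filter drops genes that are low in all groups. A list of genes tied to 1 group is thus tested mostly where it is high there, which partly fixes its direction. The members and the 32 gene lists were chosen with earlier results of these data known, and 407 of 737 list genes were tested. Genes were named by rule: Scap, Cd69, all higher genes, the 20 lower genes of smallest p (at least 5 CPM in circulating libraries), list members past the threshold, and up to 4 of the most abundant per list of B cell, signalling, trafficking, metabolism or growth. Further genes were chosen after their values were seen, most for an unadjusted p under 0.05. Some genes that the rule names are not reported here. Alternatives were DESeq2 1.42.0, limma 3.58.1 voom, other filters, scaling, subsets and batch terms. Promoters came from RefSeq (GRCm38.p6), which is not the build of the counts, and no coordinates were joined to the data.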

Additional observations from a re-analysis of the deposited data

Results flagged for a closer look

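Of 252 sets of 4 libraries examined, 21 had a highest or lowest library far from the other 3. The cutoff used is passed about 1 time in 20 by independent, normally distributed values. Normalised CPM need not be so, and a set with 3 libraries at 0 passes it whenever the remaining library is above 0. The number flagged is therefore not set against chance. Most of the 21 sets, 12, were flagged for circulating replicate 1, the library with the lowest TMM factor of the 8 (0.735). There Tbc1d9 was at 19.2 normalised CPM, Trim5 at 14.4 and Nrp2 at 12.0, each far above the other circulating libraries. Dll4 was at 767, Lifr at 1077, Spib at 2721, Xcl1 at 259 and H2-Eb1 at 7389 in the same library, again above the rest. Mef2b (1.80), Ebi3 (2.40), Mvk (3.01) and Oas2 (1.80) stood apart as well. Circulating replicate 2 stood apart by its total of 356782 counts, by Ccr9 at 177, by Pdia6 at 343 and by a red cell and platelet share of 0.00448%. Circulating replicate 4 stood apart by Crtam at 45.3. Among lung CCR6+CD69+ libraries these were Sytl2 at 0.523 in replicate 3, Cd27 at 6.44 and Rgs1 at 1050.0 in replicate 4, and Lef1 at 4.21 in replicate 1.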

How the results depend on the processing

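Every one of the 80 WT calls kept its direction in each of the 23 alternative settings in which it was tested, while the counts of calls moved. WT calls numbered 365 in DESeq2 (167 higher and 198 lower), 285 in limma voom (95 and 190), 195 in the 12 WT libraries alone (60 and 135) and 141 without libraries under 500000 counts (13 and 128). They numbered 46 without a batch term (4 and 42), 34 in batch 1 alone (4 and 30) and 3 in batch 2 alone (0 and 3). Higher genes were 26 with no filter on low counts, 17 in the 8 libraries alone and 4 when a log2 fold change over 1 was asked for. Leaving out 1 library gave 42 to 79 calls, of which 2 to 20 were higher and 37 to 70 lower. In SCAP cKO the calls were 577 in DESeq2 (238 higher and 339 lower), 213 without small libraries (42 and 171), 52 in batch 1 alone (3 and 49) and 15 in batch 2 alone (11 lower). Higher genes there were 14 with no filter and 1 without a batch term or with the fold minimum. The genotype difference had 67 calls in DESeq2 (46 higher and 21 lower) and 1, higher, in batch 1 alone. The median over all genes was 0.44 in limma voom, 0.26 in batch 1 alone, 0.18 with no filter and -0.19 without small libraries, against 0.09. The cause of these moves was not tested.

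Same-numbered lung and circulating libraries correlated at 0.159, 0.093, 0.146 and 0.149 after group means, but not batch means, were removed. Lung replicates 2 and 4 correlated best with circulating replicates 1 and 3, of their own batches. With batch means removed too, the values were -0.0013 in batch 1 and 0.022 in batch 2, from 2 libraries per group. The labels do not say whether the numbers pair samples, and pairing was not assumed. With the replicate block in place of batch, 76 genes passed (11 higher and 65 lower), and with the replicate block in the 8 libraries alone 122 (48 and 74).

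Genes that changed sign had not passed. Scap was at 0.42 in batch 1 alone, 0.22 with the block in 8 libraries and -0.76 to 0.12 on leaving out 1 library. Pax5 was at 0.10 in limma voom, 0.055 without a batch term, 0.45 in batch 2 alone, 0.11 with the block in 8 libraries and -0.33 to 0.53 on leaving out 1 library. Ccr7 was at 0.034 in limma voom, 0.68 in batch 2 alone and -0.38 to 0.34 on leaving out 1 library. Edem1 was at -0.054 with relative log expression factors and in DESeq2, -0.12 in batch 2 alone, -0.20 without small libraries and -0.050 to 0.13 on leaving out 1 library. Btg2 was at -0.20 and Ptpn6 at -0.067 without small libraries, and Btg2 at -0.013 to 0.27 on leaving out 1 library. Neil1 was at -0.077 in batch 1 alone and Sc5d at 0.0045 in batch 2 alone.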

Other observations

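Cytokine and chemokine genes were lower in the lung in 17 of 21 tested (median log2 fold change -1.04, against 0.09 over all genes), with 6 past the threshold as lower and 0 as higher. Their share of counts was 0.236 to 0.374% in lung and 0.589 to 0.739% in circulating libraries. Among the 6 were Ccl4, Xcl1, Ccr2, Ccr9 and Il18rap, several of which are on lists of other cell types too. Il2rg, the common chain of several interleukin receptors, was at 0.28 ± 0.50 (edgeR adjusted p 0.998).

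TNF receptor family genes were higher in 13 of 21 (median 0.83), and the 1 that passed was lower. This was Tnfrsf9, which encodes 4-1BB, with 0.796, 2.22, 3.40 and 2.25 normalised CPM in lung and 286, 2.21, 147 and 440.3 in circulating libraries, which overlapped (-6.62 ± 1.67, adjusted p 0.0211). Tnfrsf9 was lost without lung replicates 1 (0.125), 2 (0.0872), 3 (0.106) or 4 (0.124) or circulating replicates 1 (0.123) or 4 (0.106). Antiviral and interferon response genes were lower in 12 of 18 (median -0.53), with Trim5 past the threshold as higher and Irf8 as lower, and took 0.211 to 0.272% of lung and 0.450 to 0.510% of circulating counts. Guidance and adhesion receptor genes were lower in 8 of 12 (median -0.63), although Nrp2 rose.

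Ribosomal protein genes were taken as all symbols that start with Rpl or Rps and a digit. These 163 rows include pseudogenes and other genes such as Rps6ka6. Of them, 50 of 67 tested were higher (median 0.39) and 0 passed, with 5 higher and 1 lower at an unadjusted p under 0.05. Respiratory chain genes (median -0.07) and glycolysis genes (median 0.09) had no call either, and 1 of 20 and 0 of 10 reached that p. Conventional dendritic cell genes had a median of -0.41, which was 0.40 in DESeq2 and 0.97 without circulating replicate 1.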
